A study of Mus musculus with 24 samples.

Results

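B cells and the plasma cells they become were followed in lung RNA through 9 genes that mark one or the other, chosen by gene symbol from the 23891 genes of the deposited table. Ms4a1, Cd79a, Cd79b, Pax5 and Cd22 stood for mature B cells, and Mzb1, Tnfrsf17, Pou2af1 and Prdm1 for plasma cells. The RNA came from the left lung lobe of 24 wild-type C57BL/6 mice. Naïve adult mice (n = 5) and naïve aged mice (n = 5) were 20 and 80 wk old by their labels, which call both Saline, and the study's methods call them naïve. The other aged mice, also 80 wk old, were sensitized and challenged with house-dust mite extract (HDM, 50 µg a dose), an airborne allergen, and were taken 24 h after the last dose without (n = 7) or with (n = 7) the glucocorticoid dexamethasone (Dex, 4 mg/kg every 72 h). No adult mouse analysed here was given HDM or Dex, so age was compared only without allergen. Both sexes were used, and by Xist and Ddx3y, transcripts of the inactive X and of the Y chromosome, all 5 adult mice were female, as were 2 of 5 aged saline, 2 of 7 HDM and 4 of 7 HDM+Dex mice. The 5 adult mice being of 1 sex, a difference between ages could in part be one between sexes. The aged groups also differed in their share of females, so the same holds for differences between them. Nothing in the labels says whether mice of a group shared a cage, litter or day, so the p-values measure the spread between these samples.

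A mature B cell carries an antibody on its surface as the antigen receptor. Cd79a and Cd79b are the chains that pass the receptor's signal into the cell, Cd22 is an inhibitory co-receptor, Ms4a1 encodes the surface protein CD20, and Pax5 is the transcription factor that holds the B cell programme in place. When a B cell becomes a plasma cell, Prdm1 (Blimp-1) represses Pax5 and much of that programme, antibody is secreted in bulk, and chaperones of the endoplasmic reticulum such as Mzb1 rise. Tnfrsf17 (BCMA) is the receptor by which plasma cells take survival signals from the ligands BAFF and APRIL. Pou2af1 (OBF-1) is a coactivator of octamer-binding factors that B cells also express, and Prdm1 is made by some T cells and macrophages, so neither is limited to plasma cells. Which cells made Mzb1 was not measured in whole lung, so it is not taken as limited to plasma cells either.

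The promoters of 6 of the 9 genes were at hand in RefSeq (GRCm38.p6), each from 250 bases before to 50 bases after the start of transcription. Pax5 and Pou2af1 held none of the 6 motifs searched on both strands. The octamer ATGCAAAT was found in 0 of the 6 (1.74% of all 32851 promoters), as were GGAA and GAAA with 2 bases between, the composite site of PU.1 and IRF factors (2.72%), and GAAAGTGA, the core of a PRDM1 site (1.47%). TCCC and GGGA with 2 bases between, a palindrome bound by EBF1, was found in Cd22 alone (0.904% of all promoters). The window of Cd22 begins within an annotated exon, and whether the match itself lies in an exon was not checked. The E-box CAGGTG was found in 3 (20.2% of all), Cd79a, Cd22 and Prdm1, and TATAAA in Tnfrsf17 (13.6% of all). A match is a stretch of letters, and the absence of one says nothing about a factor. The bases upstream of the annotated exons are given for the 3 genes in which a motif, in capitals, lies there. They were read on the gene's strand from chr7:24897247-24897380 (plus) for Cd79a, chr10:44458749-44458998 (minus) for Prdm1 and chr16:11313559-11313808 (plus) for Tnfrsf17.
Cd79a: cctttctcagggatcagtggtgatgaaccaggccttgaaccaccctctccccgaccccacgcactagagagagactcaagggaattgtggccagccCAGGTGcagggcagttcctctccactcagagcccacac
Prdm1: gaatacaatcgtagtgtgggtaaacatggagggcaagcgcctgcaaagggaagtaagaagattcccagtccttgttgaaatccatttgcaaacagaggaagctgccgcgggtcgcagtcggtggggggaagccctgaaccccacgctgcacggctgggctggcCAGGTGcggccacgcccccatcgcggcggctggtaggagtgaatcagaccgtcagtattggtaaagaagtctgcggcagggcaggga
Tnfrsf17: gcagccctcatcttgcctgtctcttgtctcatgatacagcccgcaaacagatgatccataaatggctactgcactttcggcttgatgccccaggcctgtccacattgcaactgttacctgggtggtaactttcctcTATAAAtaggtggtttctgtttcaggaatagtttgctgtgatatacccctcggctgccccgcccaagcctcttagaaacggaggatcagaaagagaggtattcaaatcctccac

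All levels are CPM, in which a gene's reads are scaled to a library total common to all samples. The authors added 0.0001 to each value, which is therefore what a gene shows when no read fell on it. From the spacing of the low values, 10.1 to 33.1 M reads per sample fell on genes, and 3 reads were worth 0.0906 to 0.298 CPM. The pair of 7SL RNA genes took 9.92% to 42.0% of a sample's CPM, most in adult replicate 1, and a high share lowers the CPM of every other gene. Its median was 16.2% in adult saline, 10.9% in aged saline, 28.1% in HDM and 26.8% in HDM+Dex mice, so the share moved with the comparison of HDM and saline. Values after median-of-ratios rescaling, which divides each sample by the median ratio of its genes to their geometric means over samples, are therefore given where they change a call of the 8 genes tested or the count of a list. The tissue was lung, with the surfactant gene Sftpc at a median of 3141 to 4721 CPM in each group. Of the other lymphoid checks, the T cell gene Cd3e had medians of 5.73 to 10.3 CPM, and the thymocyte gene Rag1 reached at most 0.494 CPM in any mouse. Testing used limma on log2(CPM + 1) over 17744 genes, those averaging 1 CPM or more, with Benjamini-Hochberg adjustment over all of them. Of the 9 genes, 8 passed that filter, and Tnfrsf17, with a mean of 0.357 CPM, did not. In whole lung, more cells of a type cannot be told apart from more RNA per cell.

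In aged saline lung 1 plasma cell gene, Mzb1, was higher than in adult lung by more than the spread between mice, and the mature B cell genes differed less. Mzb1 had 0.763, 2.27, 1.91, 1.73 and 1.88 CPM in the adult mice and 6.53, 20.3, 22.3, 29.1 and 5.34 CPM in the aged saline mice. The lowest aged mouse was thus above the highest adult mouse, and the estimated reads behind these values ran from 9.45 to 46 in adult and from 108 to 578 in aged samples. The mean rose 9.76-fold, from 1.71 ± 0.567 (SD, n = 5) to 16.7 ± 10.4 CPM (SD, n = 5). On the log2 scale the difference was 2.48 (SE 0.37, limma adjusted p = 0.00327), and 2.31 after rescaling (adjusted p = 0.0113). A two-sided exact permutation test of the means gave p = 0.00794, the smallest that 5 mice against 5 allow, unadjusted and 1 of 36 such tests. Mzb1 was the only one of the 8 genes tested to pass adjustment in this comparison, where 0.592% of all genes were called higher and 0.0620% lower (0.597% and 0.451% after rescaling). At an unadjusted p under 0.05 there were 4 of the 5 mature B cell genes and 2 of the 3 plasma cell genes, where 11.2% of all genes were under it. Mzb1 was also the only one whose groups did not overlap, as 2.91% of all genes were higher and 0.175% lower without overlap. The 2 aged females, at 22.3 and 29.1 CPM, and the 3 aged males, at 5.34 to 20.3 CPM, were all above the adult females. Its exons, on chromosome 18 from 35647267 to 35649367 (GRCm38), overlap those of a gene model named SPATA24 on the same strand, and the handling of shared reads is not given in the sources used here.

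Tnfrsf17 was near the limit of detection. It was listed at 0.0001 CPM in 3 adult mice and had 0.108 and 0.215 CPM in the other two, about 2 and 4 reads. The aged saline mice had 0.212, 0.700, 0.967, 0.352 and 0.0001 CPM, at most 20 reads. These ranges overlap, and a difference was not detectable at this depth (exact permutation test, p = 0.0873, unadjusted).

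Pou2af1 had 3.31, 6.37, 10.8, 5.08 and 9.03 CPM in adult and 15, 15.1, 34.3, 27.0 and 8.90 CPM in aged saline mice, a mean of 6.92 ± 3.01 against 20.1 ± 10.3 (SD, n = 5 each). The groups overlapped through aged replicate 5 alone. The log2 difference of 1.36 (SE 0.33) did not pass (limma adjusted p = 0.0755), but it did pass without aged replicate 5 (adjusted p = 0.0217), with a sex covariate, with sample quality weights and with a replicate block. By sex, aged values were 27.0 and 34.3 CPM in females (n = 2) and 8.90 to 15.1 CPM in males (n = 3). Prdm1 had 9.36, 19.3, 13.3, 16.3 and 10.4 CPM in adult and 13.1, 18.1, 32.7, 38.1 and 11.5 CPM in aged saline mice, and its log2 difference of 0.58 (SE 0.30) did not pass (adjusted p = 0.485). With a sex covariate it was 1.34 (adjusted p = 0.0489). In females (n = 2) aged values of Prdm1 were 32.7 and 38.1 CPM, and in males (n = 3) 11.5 to 18.1 CPM, the latter within the adult range of 9.36 to 19.3 CPM.

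Among the mature B cell genes, Cd22 differed most clearly with age. It had 13.2, 26.6, 22.3, 12 and 21.2 CPM in adult and 35.9, 46.5, 34.5, 68.1 and 24.0 CPM in aged saline mice, with only aged replicate 5 inside the adult range. The log2 difference was 1.07 (SE 0.27, limma adjusted p = 0.0940), and it passed without aged replicate 5 (adjusted p = 0.0410) and with sample quality weights. The exact permutation test of the means gave p = 0.0159 (unadjusted). Ms4a1 had 3.63, 20.9, 18.0, 9.08 and 30.5 CPM in adult and 40.9, 24.9, 36.5, 47.3 and 11.7 CPM in aged saline mice, a log2 difference of 1.07 with the wider SE of 0.44 (adjusted p = 0.371). Cd79a (0.86), Pax5 (0.73) and Cd79b (0.56) had smaller log2 differences that did not pass. All 8 genes tested were nominally higher in aged lung, as were 14018 of all 17744 genes. The median log2 difference of the 8 was 0.97 against 0.19 for all genes, and 0.77 against 0.01 after rescaling. The median was 0.86 for the mature B cell genes and 1.36 for the 3 plasma cell genes tested, which is a description of the genes chosen and was not tested.

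Of the markers of other cells, 0 of 10 T cell genes and 1 of 9 myeloid genes tested, S100a8 (log2 difference 2.19), were called with age. Of all genes, 0.592% were called higher and 0.0620% lower. The summed T cell level was 23.4 to 73.7 CPM in adult and 44.7 to 143 CPM in aged saline mice, and the summed myeloid level 852 to 2391 and 2139 to 3162 CPM. Their part in the differences of Prdm1 and Pou2af1 was not tested.

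**Figure D1:**
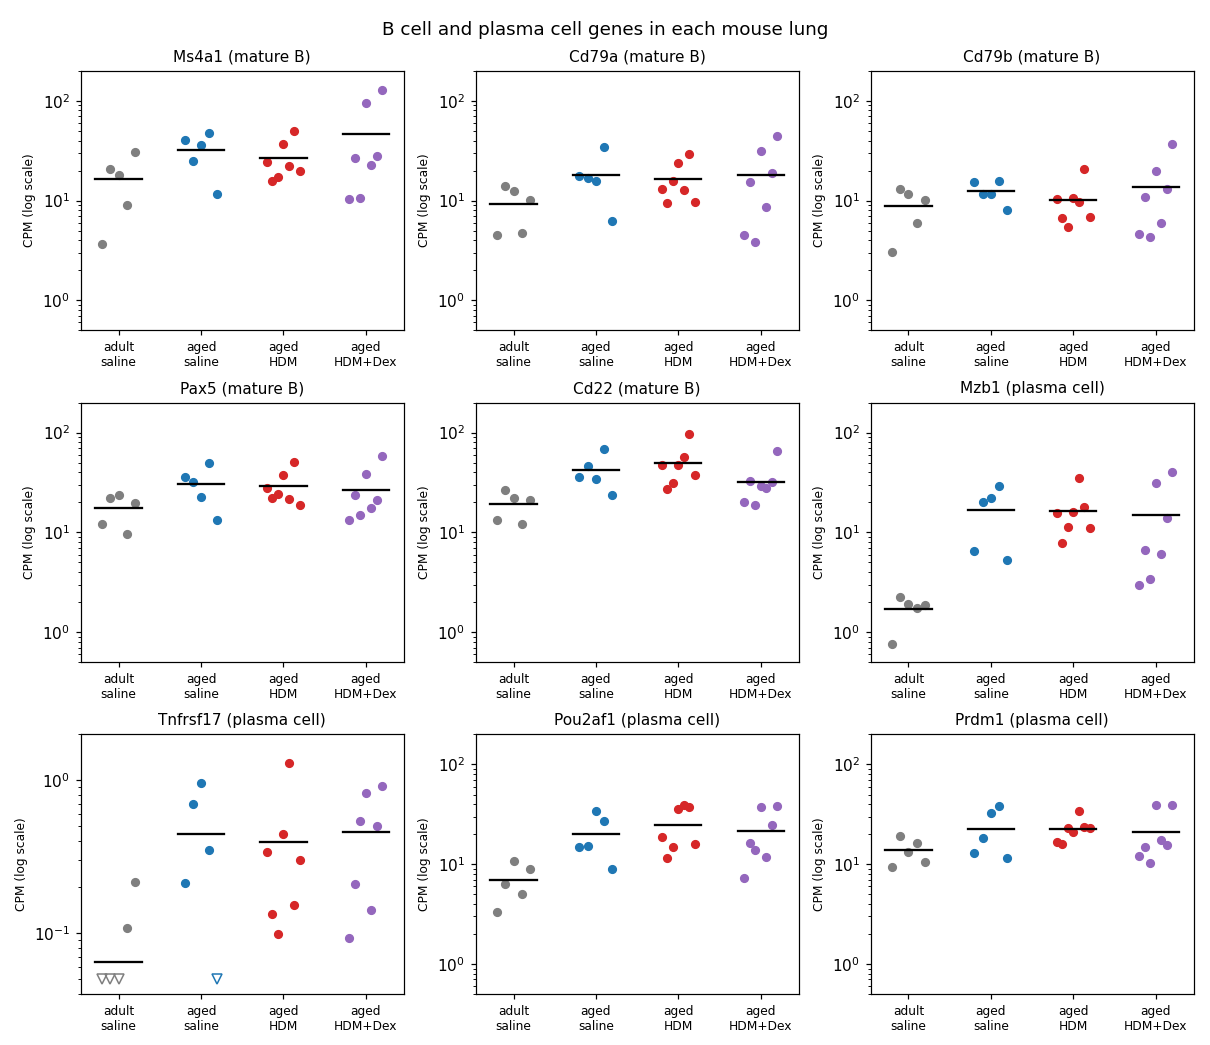
CPM of the 9 genes on a log scale, with 1 point per mouse for the adult saline (n = 5), aged saline (n = 5), aged HDM (n = 7) and aged HDM+Dex (n = 7) groups in order of replicate, and a black line at each mean. Open triangles mark Tnfrsf17 values listed at 0.0001 CPM. Mzb1 is the gene whose adult mice, at 0.763 to 2.27 CPM, lie below every aged saline mouse.

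HDM changed none of these genes in aged lung to a degree the test could show. Of the 8 tested, 0 were called higher and 0 lower, while 4.04% of all genes were called higher and 21.2% lower (11.0% and 11.5% after rescaling). At an unadjusted p under 0.05 the count was also 0, where 39.2% of all genes were under it. The groups overlapped in all 8, where 1.03% of all genes were higher and 7.69% lower without overlap. Mzb1 had 15.7, 7.83, 11.4, 15.8, 35.0, 18.2 and 11.2 CPM after HDM, and its mean of 16.5 ± 8.91 CPM (SD, n = 7) was close to that of the saline mice. The log2 difference was 0.10, with a 95% interval from −0.99 to 1.20, an interval that takes in a fall as well as a rise. Ms4a1 had 24.3, 15.7, 17.2, 36.6, 22, 49.4 and 19.8 CPM, with a log2 difference of −0.24 (95% interval −1.27 to 0.79). Cd22, at 27.5 to 97.9 CPM after HDM, had the narrowest 95% interval of the 8, from −0.41 to 0.82 around a log2 difference of 0.21. The median log2 difference of the 8 genes was 0.04 against −0.23 for all genes, and 0.28 against −0.01 after rescaling. The direction of Ms4a1, Cd79a and Pax5 turned from lower to higher with rescaling, none of them called.

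Adding Dex to HDM also left all 8 uncalled, with 0 higher and 0 lower, where 0.750% of all genes were called higher and 0.214% lower (1.98% and 0.862% after rescaling). In all 8 the groups overlapped, where 0.147% of all genes were higher and 0.0789% lower without overlap. At an unadjusted p under 0.05, 1 gene of the 8 was found, and 13.5% of all genes were. It was Cd22, which had 47.2, 27.5, 31.0, 47.6, 56.8, 97.9 and 37.9 CPM after HDM and 20.3, 33.1, 18.8, 29.3, 28.1, 31.7 and 65.0 CPM after HDM+Dex. Apart from replicate 7, the HDM+Dex mice were at or below 33.1 CPM, and the mean was 32.3 ± 15.4 against 49.4 ± 23.7 CPM (SD, n = 7 each). The log2 difference was −0.59 (SE 0.27, 95% interval −1.15 to −0.03, limma adjusted p = 0.333), and the exact permutation test gave p = 0.136, or p = 0.0361 after rescaling (both unadjusted). Ms4a1 had 10.3, 26.9, 10.7, 96.0, 22.6, 28.1 and 128 CPM after HDM+Dex, a mean of 46.1 ± 46.5 CPM (SD, n = 7) that was 1.75-fold the HDM mean only through replicates 4 and 7, while its median of 26.9 was near the HDM median of 22 CPM. Without replicate 7 the log2 difference of Ms4a1 between HDM+Dex and HDM went from 0.31 to −0.02.

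Mzb1 had 2.97, 6.63, 3.40, 31.6, 6.10, 14 and 40.0 CPM after HDM+Dex. Its median, 6.63 CPM, was below the 15.7 CPM of the HDM mice, but replicate 4 was above all but 1 of the HDM mice and replicate 7 above all 7. The log2 difference of −0.54 (95% interval −1.54 to 0.46) did not pass (adjusted p = 0.698). Pou2af1 and Prdm1 likewise had log2 differences of −0.27 and −0.22 that did not pass. Against aged saline mice, HDM+Dex differed in 0 of the 8 genes, where 0.445% of all genes were called higher and 1.44% lower (0.507% and 0.445% after rescaling), and 0.524% were higher and 1.87% lower without overlap. All 8 overlapped, with log2 differences from −0.44 (Mzb1) to 0.07 (Ms4a1) and 0 at an unadjusted p under 0.05, as 21.2% of all genes were. The 3 comparisons of aged mice share their samples and are not independent of each other.

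**Figure D2:**
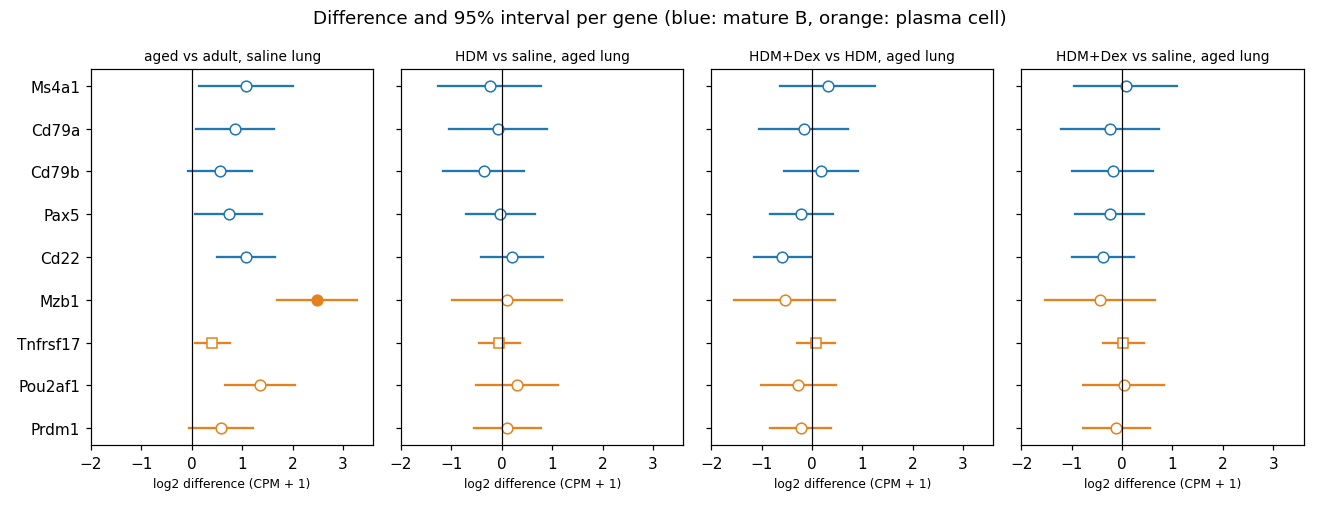
Difference in mean log2(CPM + 1) of each gene in the 4 comparisons, with the 95% interval as a line, mature B cell genes in blue and plasma cell genes in orange. The filled point is the 1 called at an adjusted p under 0.05, Mzb1 with age at 2.48, and squares mark Tnfrsf17, taken from the fit without a filter. All other points are open, and in the 3 comparisons of aged mice each interval crosses 0 except that of Cd22 between HDM+Dex and HDM, from −1.15 to −0.03.

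The genes varied together from mouse to mouse, and more than most genes did. The median coefficient of variation of the 9 genes was 43.4% in adult saline, 51.5% in aged saline, 47.9% in HDM and 71.3% in HDM+Dex mice, against 28.8%, 19.5%, 26.8% and 26.2% for all genes tested. HDM+Dex replicate 7 held the highest value of its group for 8 of the 8 genes tested. In HDM+Dex replicates 4 and 7, 7SL RNA took 11.3% of CPM each, against 18.9% to 31.6% in the rest of that group. Both were female, as were replicates 5 and 6, and the part of sex or 7SL share was not tested. Aged saline replicate 5 held the lowest for 8 of 8, and aged saline replicate 4 the highest for 7 of 8. Adult replicate 1, in which 7SL RNA took 42.0% of CPM, held the lowest for 6 of 8, and the part of that share in the values was not tested. After removing group means, the correlation of log2(CPM + 1) over the 24 mice had a median of 0.875 (0.768 to 0.936) between pairs of mature B cell genes. It was 0.850 (0.721 to 0.886) between the 3 plasma cell genes, and 0.719 (0.562 to 0.826) between a gene of one kind and a gene of the other. All-gene medians of the same measure were 0.401 with Ms4a1 and 0.25 with Mzb1. The values of a mouse share 1 library and 1 scale, so these are descriptions.

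The genes most like Ms4a1 in this measure were Btla (0.946), an inhibitory receptor of lymphocytes, Fcrla (0.942), a B cell Fc receptor-like protein, the predicted gene Gm42870 (0.940), the lymphocyte transcription factor Ikzf3 (0.929) and the B cell scaffold Bank1 (0.926). Those most like Mzb1 were Irf4 (0.948), a transcription factor that plasma cells require, the calcium channel subunit Cacna1e (0.904), A530032D15Rik (0.895), the endoplasmic reticulum oxidoreductase Txndc5 (0.886) and the translocon-associated Tram2 (0.883). Members and immunoglobulin genes were left out of this ranking.

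Per kilobase of exon, which allows genes to be compared with each other, the receptor chains led in adult lung, with 6.29 ± 3.01 CPM per kb for Cd79a and 6.15 ± 2.92 for Cd79b (SD, n = 5). Cd22 (3.79), Pou2af1 (2.71), Ms4a1 (2.65), Prdm1 (2.46), Pax5 (1.98), Mzb1 (1.41) and Tnfrsf17 (0.0794) followed. In aged saline lung Mzb1 had moved from the eighth to the first place, at 13.8 ± 8.53 CPM per kb (SD, n = 5), ahead of Cd79a at 12.5 ± 6.97. The order below was Cd79b (8.69), Cd22 (8.29), Pou2af1 (7.87), Ms4a1 (5.21), Prdm1 (4.07), Pax5 (3.47) and Tnfrsf17 (0.547). Mzb1 was also first after HDM, at 13.6 ± 7.34, and second after HDM+Dex, at 12.3 ± 12.2 CPM per kb (SD, n = 7 each). In each of the 4 groups, neighbours in the order differed by less than the larger of their SDs, except for the last step to Tnfrsf17.

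A plasma cell gene was set against a mature B cell gene in each mouse by the ratio of Mzb1 to Ms4a1. In adult mice the ratio was 0.210, 0.109, 0.106, 0.190 and 0.0617. In aged saline mice it was 0.160 in replicate 1 and 0.815, 0.613, 0.614 and 0.458 in the others. After HDM it ran from 0.368 to 1.60 with a median of 0.564, and after HDM+Dex from 0.247 to 0.499 with a median of 0.312. All HDM and HDM+Dex mice were thus above all adult mice, HDM replicate 5 was the 1 mouse with more Mzb1 than Ms4a1, and the HDM and HDM+Dex mice overlapped between 0.368 and 0.499. HDM+Dex replicates 4 and 7, the highest of their group in both genes, had ratios of 0.329 and 0.312, near the middle of that group. Over the genes tested, the mean log2(CPM + 1) of the plasma cell genes minus that of the mature B cell genes was −1.01 ± 0.41 in adult, −0.40 ± 0.58 in aged saline, −0.12 ± 0.48 in HDM and −0.37 ± 0.25 in HDM+Dex mice (SD), with ranges that overlapped between all groups. These ratios were not tested. Cd22 relative to Ms4a1 set 2 mice apart within the HDM+Dex group. The ratio was 0.305 and 0.508 in HDM+Dex replicates 4 and 7, 1.13 to 1.97 in the other 5 HDM+Dex mice and 1.30 to 2.58 after HDM. In saline mice it ran more widely, from 0.697 to 3.64 in adult and from 0.878 to 2.05 in aged mice.

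**Figure D3:**
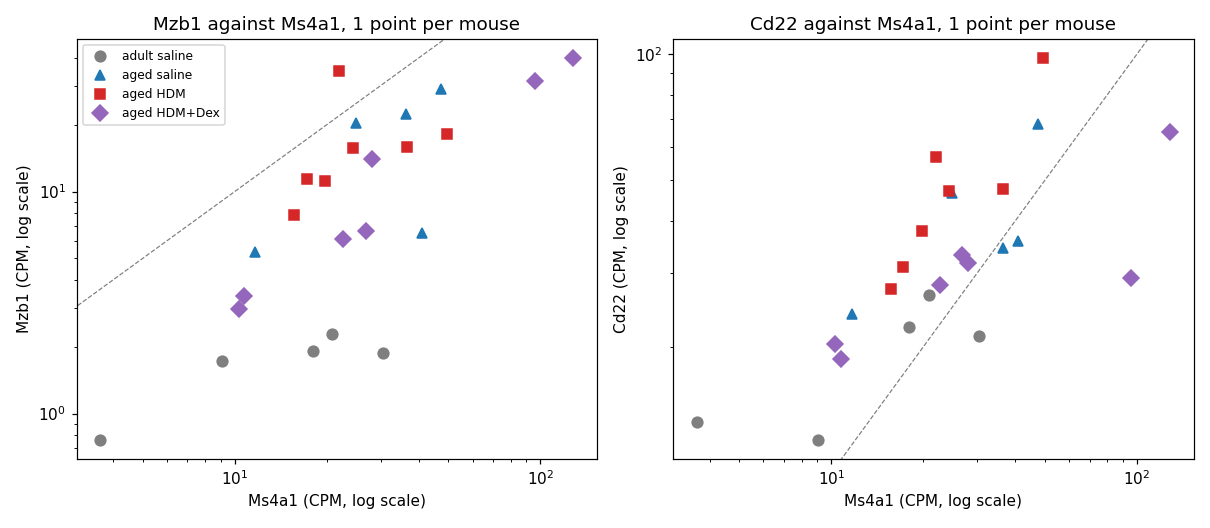
Mzb1 (left) and Cd22 (right) against Ms4a1 in CPM on log scales, with 1 point per mouse and a dashed line where both genes are equal. The 5 adult mice have ratios of Mzb1 to Ms4a1 of 0.0617 to 0.210, a range that also holds 1 aged saline mouse at 0.160, and the HDM+Dex mice at 96.0 and 128 CPM of Ms4a1 lie below the line in both panels.

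The antibody genes, the main product of plasma cells, showed a wider range than the identity genes. The 187 immunoglobulin genes summed took 0.00710% to 0.0261% of CPM in adult mice and 0.111% to 0.718% in aged saline mice, without overlap. They took 0.205% to 0.877% after HDM and 0.0276% to 0.685% after HDM+Dex. Of 12 constant region genes, 6 rose and 0 fell with age, against 0.592% and 0.0620% of all genes. Among the 6 were Ighg2c (log2 difference 4.88, limma adjusted p = 7.56e-07), Ighg2b (5.02), Igkc (5.16) and Ighm (4.55). Ighg2b, Ighg2c and Ighg1, the last also among the 6, had adult means of 0.875, 0.629 and 0.508 CPM. These 3 passed the filter of 1 CPM only through the aged mice. After HDM, Igha (2.58), Ighg1 (3.98) and Ighe (2) rose while Ighg2c fell by 1.57, the last not called after rescaling (limma adjusted p = 0.0693) or in 10 of the 12 fits that left out 1 mouse. Of all genes, 4.04% were called higher and 21.2% lower after HDM (11.0% and 11.5% after rescaling). Ighe had means of 0.222 CPM in saline, 5.07 in HDM and 0.983 in HDM+Dex mice, and it passed the filter of 1 CPM only through the HDM mice. With Dex added to HDM, Igha (−1.72, adjusted p = 0.0270), Ighg1 (−3.52, adjusted p = 0.0338) and Ighg2b (−1.70, adjusted p = 0.0395) fell by limma. In that comparison 0.214% of all genes were called lower. Of 14 fits that left out 1 mouse, Igha was called in 8, Ighg1 in 5 and Ighg2b in 6 (adjusted p up to 0.0780, 0.0912 and 0.0961), and none of these 3 genes was called without HDM replicate 1, 3, 4 or 5, without HDM+Dex replicate 1 or 4, or with only the compared groups in the fit. Between HDM+Dex and saline, 0 of the 12 were called higher and 2 lower, against 0.445% and 1.44% of all genes. They were Ighg2b (−1.93, limma adjusted p = 0.0288) and Ighg2c (−2.32, adjusted p = 0.0402). After rescaling 1 was called lower, Ighg2b, where 0.445% of all genes were. Of 12 fits that left out 1 mouse, Ighg2b was called in 6 and Ighg2c in 2. The identity genes were not called in any of these comparisons of aged mice. Within the 24 mice, after removing group means, the mean log2 level of the constant region genes had a correlation of 0.912 with Mzb1 and 0.743 with Ms4a1.

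**Figure D4:**
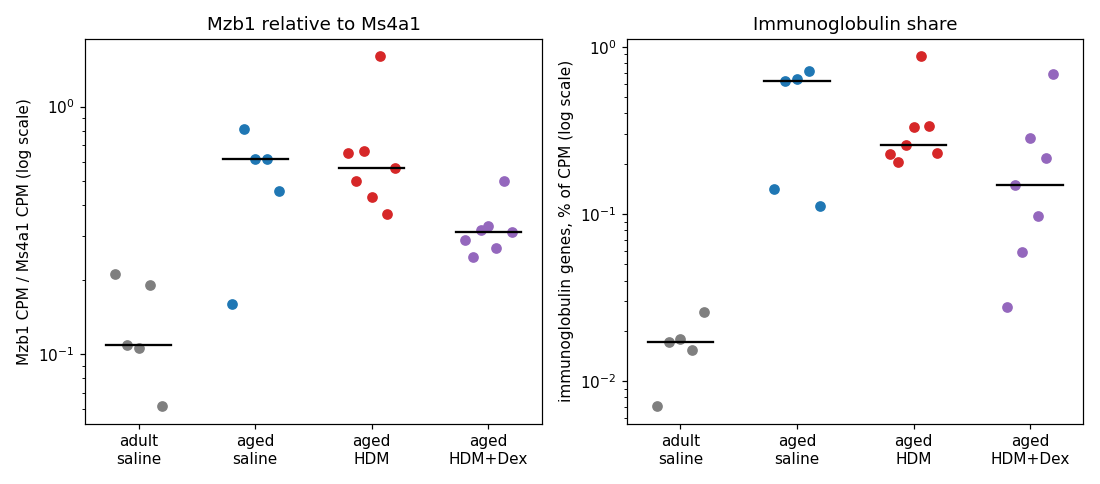
Ratio of Mzb1 to Ms4a1 CPM (left) and summed share of the 187 immunoglobulin genes in percent of CPM (right), both on log scales, with 1 point per mouse and a black line at each group's median. The immunoglobulin share of every adult mouse, at most 0.0261%, is below that of every aged mouse.

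Other genes of plasma cells and of the secretory pathway rose with age in 3 of 18 cases and fell in 0, against 0.592% and 0.0620% of all genes. Jchain, which joins IgA and IgM into polymers, had 1.70 to 17 CPM in adult and 59.5 to 537 CPM in aged saline mice (log2 difference 5.23, SE 0.58, adjusted p = 0.000181). Eaf2, an elongation factor partner, went from 0.214 ± 0.137 to 3.07 ± 2.02 CPM (SD, n = 5 each; log2 difference 1.58, adjusted p = 0.0220). Derl3, of the pathway that removes misfolded proteins, went from 0.897 ± 0.365 to 3.98 ± 1.98 CPM (SD, n = 5 each; log2 difference 1.31, adjusted p = 0.0303), and was not called after rescaling (adjusted p = 0.0522). Of 10 fits that left out 1 mouse, Eaf2 was called in 5 and Derl3 in 3 (limma adjusted p up to 0.0698 and 0.0996), Jchain in all 10. Of 11 alternatives in processing, Eaf2 was called in 9 and Derl3 in 6 (limma adjusted p up to 0.0823 and 0.102). With adult means under 1 CPM, Eaf2 and Derl3 passed the filter only through the aged mice. All 18 had positive log2 differences, as had 14018 of all 17744 genes. The median of the 18 was 0.77 against 0.19 for all genes, and 0.56 against 0.01 after rescaling. After HDM 1 of the 18 rose (4.04% of all genes did), Slamf7 (1.01, limma adjusted p = 0.0179), a surface protein that natural killer cells and macrophages also carry, which was not called without saline replicate 1 or 5 (adjusted p up to 0.0658). After rescaling 6 of the 18 rose (11.0% of all genes), with Tnfrsf13b (also counted in the pathway of BAFF and APRIL), Cd38, Edem2, Sdf2l1 and Prdx4 added. With Dex added to HDM 0 of 18 were called by limma as deposited, and 3 had an unadjusted p under 0.05 (13.5% of all genes did). After rescaling 1 was called, Edem2 (−0.51, limma adjusted p = 0.0409), where 0.862% of all genes were called lower.

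The further 18 mature B cell genes were called by limma in none of the 4 comparisons as deposited. The median log2 difference of the 18 with age was 0.54 against 0.19 for all genes, and 0.35 against 0.01 after rescaling. With age the nearest to a call was Spib, a B cell transcription factor, at a log2 difference of 1.13 (limma adjusted p = 0.0590). After HDM it was Fcer2a, the low-affinity IgE receptor CD23 of B cells, with 9.70 ± 4.57 CPM in saline (SD, n = 5) and 16.9 ± 5.20 CPM in HDM mice (SD, n = 7). Its log2 difference of 0.78 had a limma adjusted p = 0.0529 as deposited and 0.0386 after rescaling, where 11.0% of all genes were called higher. At an unadjusted p under 0.05 the 18 genes gave 3 after HDM, 1 with Dex added to HDM, 2 between HDM+Dex and saline, and 7 with age. In the same order, 39.2%, 13.5%, 21.2% and 11.2% of all genes were under it.

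Genes that attract B cells or keep them alive changed in part, where 0.592% of all genes rose with age and 4.04% after HDM. With age, 2 of the 7 tested rose and 0 fell, Cxcl13, the chemokine that draws B cells into follicles (0.837 ± 0.853 to 5.13 ± 1.96 CPM, SD, n = 5 each; log2 difference 1.79, adjusted p = 0.00522), and Ccl20, which draws cells with CCR6, B cells among them (1.48, adjusted p = 0.00199, listed at 0.0001 CPM in 3 of 5 adult mice). Both were called in all 10 fits that left out 1 mouse but not with all 24 samples in one fit (limma adjusted p = 0.295 and 0.0581). With adult means under 1 CPM, Cxcl13 and Ccl20 passed the filter only through the aged mice. After HDM 1 rose, Ltb (0.93, adjusted p = 0.0105), a lymphotoxin chain. In the pathway of BAFF and APRIL, 3 of 10 rose and 0 fell after HDM. They were Tnfsf13, which encodes APRIL (0.71, adjusted p = 0.0142), and the downstream Nfkb2 (0.57) and Birc3 (0.39). Tnfsf13 was not called without saline replicate 1 (adjusted p = 0.0560), Nfkb2 without saline replicate 1, 3 or 5 (adjusted p up to 0.0713), and Birc3 in 9 of the 12 fits that left out 1 mouse (adjusted p up to 0.107). After rescaling 8 of the 10 rose and 0 fell, against 11.0% and 11.5% of all genes. The 5 added were the receptor TACI (Tnfrsf13b, 0.85, limma adjusted p = 0.0217) and, of the signalling chain below the receptors, Traf2 (0.54), Traf3 (0.48), Map3k14 (0.58) and Relb (0.68). Between HDM+Dex and saline 1 of the 10 was called higher and 0 lower, against 0.445% and 1.44% of all genes. It was Tnfsf13, at 16.2 ± 3.67 CPM after HDM+Dex (SD, n = 7) against 8.23 ± 2.25 CPM in saline (SD, n = 5; 0.91, limma adjusted p = 0.0273). Its groups did not overlap, where 0.524% of all genes were higher without overlap. Tnfsf13 was called in 9 of the 12 fits that left out 1 mouse, not without saline replicate 1 or 3 or HDM+Dex replicate 2 (adjusted p up to 0.0787).

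After HDM 4.04% of all genes were called higher and 21.2% lower (11.0% and 11.5% after rescaling). Of 17 genes of B cell receptor signalling, 3 rose and 0 fell in that comparison. These were Fcgr2b (1.68, adjusted p = 0.000564), the inhibitory Fc receptor, Malt1 (0.83) and Vav1 (0.78), all of which myeloid cells or T cells also express. Vav1 was not called without saline replicate 5 (adjusted p = 0.0545). After rescaling 5 of the 17 rose, with Btk (0.75, limma adjusted p = 0.0154) and Inpp5d (0.42, adjusted p = 0.0247) added. Of 9 myeloid markers tested, 3 rose and 1 fell in the same comparison, with log2 differences of 1.88 for Itgax, 1.55 for Cd68, 0.71 for Csf1r and −1.46 for the neutrophil gene S100a8. After rescaling 5 rose, with Adgre1 (0.97) and Itgam (0.97) added, and 1 fell. Csf1r was not called without saline replicate 1 or 3, nor S100a8 without saline replicate 1 or 4 (limma adjusted p up to 0.0550 and 0.0558). Their summed level was 2139 to 3162 CPM in saline and 1248 to 5264 CPM in HDM mice. Of 10 T cell markers, 1 rose (Cd6, 0.97, called in 7 of the 12 fits that left out 1 mouse) and 0 fell, or 2 rose after rescaling with Cd3e (0.63) added, with a summed level of 44.7 to 143 CPM in saline and 71.6 to 196 CPM in HDM mice. Of 10 lung epithelial markers 0 rose and 5 fell (2 after rescaling), among them the club cell gene Scgb1a1 (−2.46) and Hopx (−0.83). Their summed level was 10373 to 18117 CPM in saline and 4486 to 9426 CPM in HDM mice. All 7 heart muscle markers fell on both scales, from a summed 561 to 1039 CPM in saline to 21.4 to 422 CPM in HDM mice. The part of these markers in the signalling and BAFF results was not tested. Of 5 germinal centre genes tested, 0 were called by limma in any comparison as deposited, with 1, 1, 1 and 3 at an unadjusted p under 0.05 after HDM, with Dex, between HDM+Dex and saline, and with age. Of all genes, 39.2%, 13.5%, 21.2% and 11.2% were under it in the same order. With age Gcsam came nearest (0.72, adjusted p = 0.161), and Bcl6 after HDM (−0.59, adjusted p = 0.0608). After rescaling 1 of the 5 rose after HDM (11.0% of all genes did), S1pr2 (0.54, limma adjusted p = 0.00750), a receptor that holds germinal centre B cells in place and that other cells also make.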

How the data were processed

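Lung RNA of 24 mice was measured by RNA-Seq. By the study's methods, stranded mRNA libraries were sequenced from both ends and processed with a Picard, STAR and limma pipeline, and the submitters' processing notes name FastQC, STAR, DESeq2 and mm9. The authors deposited CPM, reads scaled to a common library total, with 0.0001 added to each value. The coordinates in the table match GRCm38 rather than mm9, since 23142 of 23276 symbols found in GENCODE M21 have the same start. Strand handling and the treatment of shared reads are not given in the sources used here. Per-sample columns left unused numbered 0. A further deposited text file, a download command, was not used.

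Groups followed the sample labels. The spacing of low CPM values gave 10.1 to 33.1 M reads per sample. Between 80.4% and 85.1% of the values under 20 spacings lay within 0.05 of a whole multiple, so the values were not turned into counts. The 3-read floors cover counting error only.

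Differences were tested with limma 3.58.1 (R 4.3.3) on log2(CPM + 1), for 17744 genes averaging 1 CPM or more, with moderated variances that follow a trend with the mean. P-values were adjusted by Benjamini and Hochberg's method and called at 0.05. A fold change on this scale understates that of genes with few reads. The 19 aged samples entered one fit and the 10 saline samples another. Tnfrsf17 was read from the same fit without the filter. For single genes the difference in mean CPM was put to a two-sided exact permutation test (scipy 1.17.1), unadjusted over 36 tests. Simulated data with known changes were used to test the limma step. Levels per kb used the summed exon length of GENCODE M21. Python 3.11.15, numpy 2.4.6, pandas 2.3.3 and matplotlib 3.10.9 were used.

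The 9 genes and all lists were chosen with earlier results of these data known. The text names all 9 genes. From each further list and comparison it took up to 4 genes of lowest adjusted p among those called, otherwise the genes of lowest p as values, and it adds the 5 genes most like Ms4a1 and Mzb1. Not every gene so taken is printed. Genes named because rescaling changed their call, and the markers of other cells, were chosen after their values were seen. Alternatives were pseudocounts of 0.1 and 5, no filter or one at 5 CPM, median-of-ratios rescaling, CPM without 7SL RNA, other samples in the fit, no trend, sample quality weights, a sex covariate, a replicate block and leaving out each sample. Rescaling together with the sex covariate was added after seeing the data.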

Additional observations from a re-analysis of the deposited data

Results flagged for a closer look

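In 6 of the 36 sets of values checked (9 genes in 4 groups), the highest mouse stood apart from the others by more than Dixon's 95% critical value. Chance alone marks about 1 in 20 sets where values are normally distributed and sets independent. These were CPM values, not logarithms, of genes that vary together, so the 6 cannot be set against that rate. In aged HDM replicate 6, Cd79b was at 20.7 CPM, with the next mouse at 10.5 CPM, and Cd22 at 97.9 CPM, with the next at 56.8 CPM. In aged HDM replicate 5, Mzb1 was at 35.0 CPM (next 18.2), Prdm1 at 34.2 CPM (next 23.4) and Tnfrsf17 at 1.31 CPM (next 0.444). In aged HDM+Dex replicate 7, Cd22 was at 65.0 CPM (next 33.1). All 3 plasma cell genes marked were thus highest in 1 HDM mouse and both mature B cell genes marked after HDM in another. Without either mouse, 0 of the 8 genes tested were called between HDM and saline.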

How the results depend on the processing

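Mzb1 was called higher with age under each alternative run, with log2 differences of 1.54 to 3.32 (adjusted p from 0.000179 to 0.0235) and of 2.22 to 2.79 when single samples were left out. The number of genes called higher with age was 1 as deposited. It was 3 with sample quality weights (Cd22 and Pou2af1 added), 3 with the sex covariate (Pou2af1 and Prdm1 added), 2 with the replicate block and 2 with rescaling plus the sex covariate (Pou2af1 added in both), and 1 to 3 when single samples were left out, the 3 being without aged saline replicate 5. The sex covariate rests on the aged mice, since all adult mice were female. In the other 3 comparisons 0 genes were called under any alternative. The replicate block used the sample numbers. Same-numbered samples had a correlation of deviations over 0.1 in 1 of 5, 2 of 7, 0 of 5 and 0 of 5 pairs, from −0.238 to 0.407. Samples with different numbers were not set beside them, so whether the numbers pair the mice was not tested.

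No called value changed sign, and the following uncalled differences did, for causes that were not tested. For HDM against saline, log2 differences became 0.15 for Cd79a and 0.20 for Pax5 without 7SL RNA. With rescaling they became 0.16 for Cd79a, 0.22 for Pax5 and 0.0035 for Ms4a1, and the differences in mean CPM became 0.952 for Cd79a, 3.06 for Pax5, 2.72 for Mzb1, 3.99 for Prdm1 and 0.0336 for Tnfrsf17. With the sex covariate they became 0.027 for Cd79a and 0.028 for Pax5, with rescaling too 0.24 for Cd79a, 0.25 for Pax5 and 0.10 for Ms4a1, and with the replicate block −0.12 for Mzb1. For HDM+Dex against HDM, Cd79b became −0.12 and Ms4a1 −0.092 with quality weights, −0.029 and −0.0016 with the sex covariate, and Cd79b −0.0065 with rescaling too. For HDM+Dex against saline, Ms4a1 became −0.46 and Pou2af1 −0.30 with quality weights, −0.12 and −0.11 with the sex covariate, and −0.19 and −0.14 with the replicate block. Prdm1 became 0.062 without 7SL RNA and, with rescaling, 0.084 in log2 and 0.505 in mean CPM, and Cd79b became 0.0077 with rescaling.

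Leaving out single samples moved the log2 differences across 0 as follows. For HDM against saline they ran from −0.39 to 0.18 (Cd79a), −0.29 to 0.17 (Pax5), −0.20 to 0.36 (Mzb1) and −0.087 to 0.32 (Prdm1). For HDM+Dex against HDM they ran from −0.025 to 0.56 (Ms4a1), −0.44 to 0.098 (Cd79a) and −0.11 to 0.36 (Cd79b). For HDM+Dex against saline they ran from −0.27 to 0.32 (Ms4a1), −0.55 to 0.020 (Cd79a), −0.47 to 0.0050 (Cd79b), −0.20 to 0.25 (Pou2af1) and −0.31 to 0.10 (Prdm1). Over all alternatives the count of all genes called ranged from 473 to 2066 higher and 2016 to 6713 lower after HDM, 0 to 420 and 1 to 249 with Dex added, 24 to 476 and 39 to 4995 between HDM+Dex and saline, and 57 to 478 and 2 to 306 with age. Among the identity genes, the estimated depth limits only Tnfrsf17, at 0 to 31 reads a sample. Some genes of the further lists also had values near the 3-read floor. In adult saline mice Eaf2 ran from 0.0001 to 0.341 CPM and Ccl20 from 0.0001 to 0.108 CPM. In aged saline mice Ighe ran from 0.0001 to 0.553 CPM. The differences called for these genes therefore rest on few reads in the saline group named.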

Other observations

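T cell markers varied with the B cell genes from mouse to mouse. After removing group means, the mean log2 level of the 10 T cell markers had correlations of 0.695 to 0.815 over the 24 mice with the 8 genes tested, against 0.347 to 0.581 for the myeloid markers and −0.134 to 0.083 for heart muscle genes. Correlations were 0.217 to 0.537 with the lung epithelial markers and −0.691 to −0.417 with the share of 7SL RNA. The part of that share in these correlations was not tested. The further plasma cell and secretory genes had a correlation of 0.905 with Mzb1 and 0.631 with Pax5, and the further mature B cell genes 0.703 with Mzb1 and 0.958 with Pax5. These are descriptions of values that share a library and a scale.

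Irf4 had 7.22 ± 2.53 CPM in adult saline, 23.5 ± 13.7 in aged saline (SD, n = 5 each), 35.3 ± 13.0 in HDM and 36.6 ± 25.8 CPM in HDM+Dex mice (SD, n = 7 each).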
